A study of Rattus norvegicus with 33 samples.

Results

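Motility and chemotaxis genes of the gut community were compared in the cecal contents of SHR and WKY rats through 5 functional subsystems, which are named groups of genes that carry out 1 task. The 5 members are all of the 1057 subsystems in the deposited function table whose name contains flagell, chemotaxis or motility. They are Bacterial Chemotaxis, Flagellar motility, Flagellum, Flagellum in Campylobacter and Bacterial motility:Gliding. The last of them was taken in by the word motility and describes movement without flagella, so 4 of the 5 members concern flagella or the sensing system that steers them. All 5 had reads in 33 of 33 rats, and all 5 passed a filter on low values of at least 10 normalized reads in at least 7 rats.

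Shotgun sequencing of cecal DNA was done on 10 SHR and 9 WKY females and on 7 SHR and 7 WKY males, each library from 1 rat of 14 to 15 weeks. SHR is the spontaneously hypertensive rat, an inbred line whose blood pressure rises with age, and WKY (Wistar Kyoto) is the normotensive strain it is usually set against. No treatment, allele or diet is given on the labels, and no cage, litter or sequencing batch, so rats of a group were treated as independent. WKY rats carried the numbers 372 to 389 and SHR rats 400 to 423, so strain and range of numbers cannot be told apart.

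The bacterial flagellum is a rotating filament of flagellin, joined by a hook to a basal body in the envelope, where stator proteins drive the turning. Chemotaxis steers it. Receptors in the membrane sense nutrients or repellents and control the kinase CheA, which phosphorylates CheY, and phosphorylated CheY binds the motor and changes its direction of rotation. In the intestine, flagellin is also the ligand of the host's Toll-like receptor TLR5, and motile bacteria of the colon include Roseburia and other Lachnospiraceae. Gliding is movement over surfaces without flagella, best known from Flavobacterium and from Myxococcus.

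The function table gives, for each rat, the number of reads assigned to a subsystem divided by a size factor of the library, called normalized reads here. Libraries held between 95952 and 489862 reads assigned to functions, with medians of 214911 in SHR females and 396240 in WKY females, and of 315719 in SHR males and 382975 in WKY males. Together the 5 members took 1.26 ± 0.288% of function reads in SHR females (SD, n = 10) and 0.799 ± 0.192% in WKY females (n = 9), and 1.15 ± 0.336% in SHR males (n = 7) and 0.748 ± 0.323% in WKY males (n = 7). Between 849 and 6345 reads per library stood behind these shares. They count genes in DNA, so more flagellated cells and more motility genes per cell cannot be told apart, and nothing in them measures expression or movement. Normalized reads are not per gene length, so levels are compared between rats and not between subsystems.

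In females, genes for sensing and for swimming were more abundant in SHR than in WKY rats. Bacterial Chemotaxis, Flagellar motility and Flagellum were higher in SHR females, by 1.77-fold, 2.01-fold and 1.55-fold. Flagellum in Campylobacter was 1.34-fold and Bacterial motility:Gliding 1.04-fold the WKY level, and neither passed the test. The test was limma on log2(normalized reads + 1) over all 33 rats, with Benjamini-Hochberg adjustment over all 1057 subsystems, and a call is an adjusted p under 0.05. It called 3 of the 5 members, all higher in SHR, where 8.42% of all subsystems were called, 39 higher and 50 lower. The median log2 fold change was 0.64 over the 5 members and -0.04 over all subsystems. Leaving out SHR female 1, WKY female 3 or WKY female 9 left 1 of 5 called, Bacterial Chemotaxis. Over all subsystems, the calls in females ran from 61 to 129 in the 33 fits that left out 1 rat.

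Bacterial Chemotaxis, the receptors and signalling proteins that steer the cell, had a lowest, median and highest level of 819, 1322 and 2223 normalized reads in SHR females, against 520, 732 and 1204 in WKY females. All 10 SHR females lay above the WKY median and 6 of 10 above the highest WKY female, so the groups overlapped in part. The means were 1426 ± 417 in SHR females and 801 ± 223 in WKY females (SD, n = 10 and 9). The log2 fold change was 0.82 ± 0.22 (SE, limma adjusted p = 0.0184).

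Flagellar motility, by its name the genes for swimming with flagella, ran from 521 through a median of 718 to 1316 normalized reads in SHR females, against 202, 350 and 731 in WKY females. Again all 10 SHR females lay above the WKY median, and 5 of 10 above the highest WKY female. Means were 797 ± 252 in SHR females and 413 ± 178 in WKY females, and the log2 fold change was 1.01 ± 0.29 (SE, limma adjusted p = 0.0255).

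Flagellum, by its name the genes of the organelle itself, ran from 534 through 796 to 1243 normalized reads in SHR females, against 326, 511 and 794 in WKY females. The highest WKY female lay at the level of the median SHR female. The log2 fold change was 0.64 ± 0.20 (SE, limma adjusted p = 0.0434), the adjusted p nearest to the threshold among the members called. It was not called in 12 of the 33 fits that left out 1 rat, with adjusted p-values from 0.0211 to 0.0935.

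Flagellum in Campylobacter, flagellar genes as arranged in that genus, had 276, 378 and 541 normalized reads (lowest, median, highest) in SHR females, against 228, 303 and 346 in WKY females. Of 10 SHR females, 7 lay above the highest WKY female and 2 below the WKY median. The log2 fold change of 0.42 ± 0.14 was not called by limma (SE, adjusted p = 0.0615), whereas edgeR's quasi-likelihood test and DESeq2, run on whole reads recovered from the table, gave adjusted p-values of 0.0362 and 0.0244.

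Bacterial motility:Gliding averaged 423 ± 37.8 normalized reads in SHR females and 410 ± 78.9 in WKY females (SD, n = 10 and 9). No SHR female lay above the highest WKY female at 527 normalized reads. The log2 fold change was 0.06, with a 95% interval from -0.16 to 0.29 (limma adjusted p = 0.781). The upper bound of that interval lies below the log2 fold changes of the 4 flagellar and chemotaxis members. It overlaps the 95% interval of Flagellum in Campylobacter, 0.13 to 0.71. The log2 ratio of gliding to Flagellum in Campylobacter differed between the strains by -0.36, which did not pass (exact permutation, adjusted p = 0.0859).

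**Figure D1:**
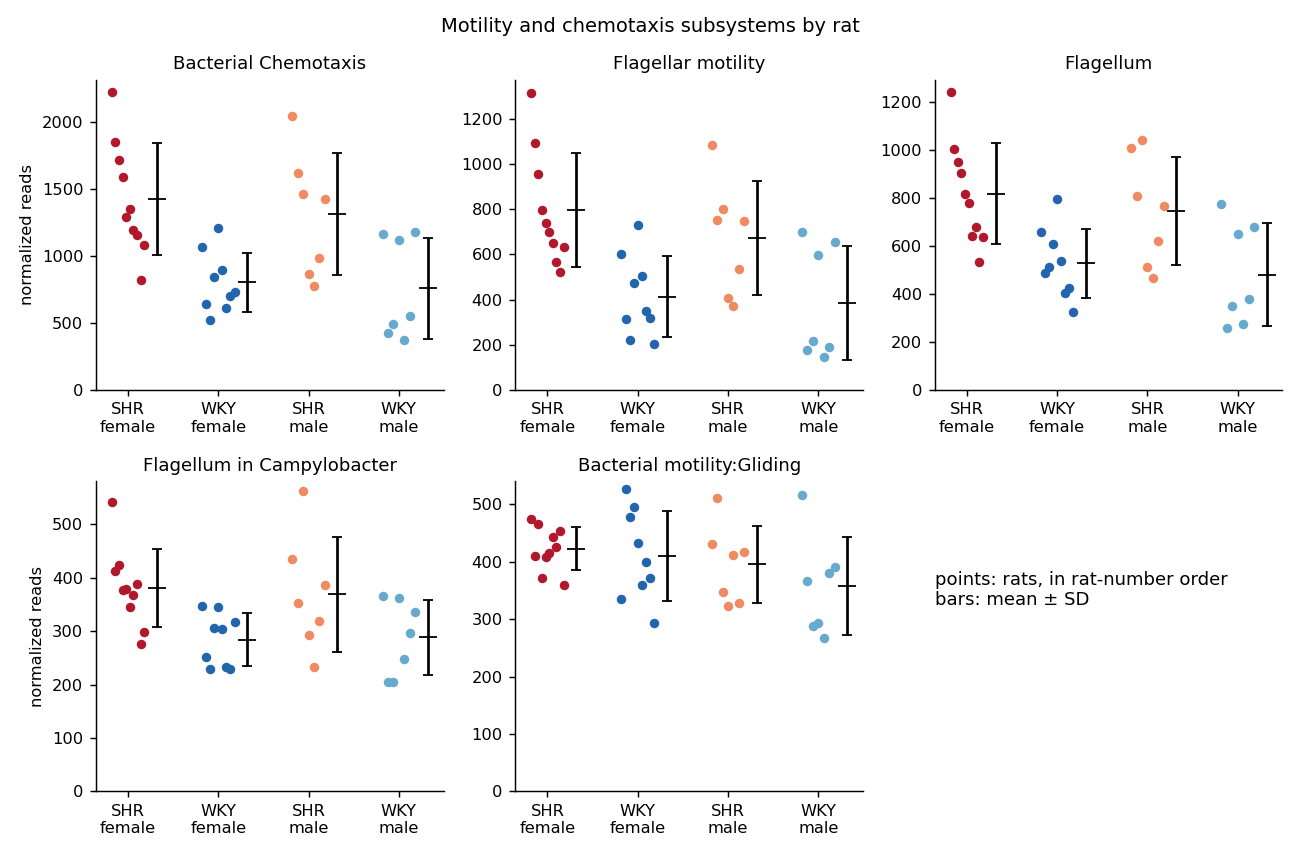
Normalized reads (vertical axis, from 0) of each member subsystem in every rat, by group (horizontal axis), with rats of a group in the order of their numbers and bars for mean ± SD. In females, SHR rats lie above the WKY median in 10 of 10 rats for chemotaxis, flagellar motility and flagellum, whereas gliding has similar ranges, and among the 7 WKY males 3 lie well above the other 4 for chemotaxis, flagellar motility and flagellum.

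In males, the same 4 subsystems lay higher in SHR than in WKY rats by similar amounts, but none passed the test. limma called 0 of 5 members, where 2.46% of all subsystems were called, 7 higher and 19 lower. At an unadjusted p under 0.05 there were 4 of 5 members and 203 of 1057 subsystems. edgeR called 0 of 5 and DESeq2 1 of 5, Bacterial Chemotaxis, with an adjusted p of 0.0274. Over all subsystems, edgeR called 37 in males and DESeq2 83, against 26 by limma.

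Bacterial Chemotaxis had a lowest, median and highest level of 776, 1426 and 2043 normalized reads in SHR males, against 370, 547 and 1179 in WKY males. All 7 SHR males lay above the WKY median and 4 of 7 above the highest WKY male. Its log2 fold change was 0.87 ± 0.26 (SE, limma adjusted p = 0.0582), and the 2-sided exact permutation test of this member alone gave p = 0.0286 (n = 7 and 7).

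Flagellar motility had 371, 748 and 1087 normalized reads (lowest, median, highest) in SHR males, against 146, 218 and 699 in WKY males. Its log2 fold change was 1.01 ± 0.34 (SE, limma adjusted p = 0.0844). Flagellum averaged 746 ± 226 in SHR males and 480 ± 214 normalized reads in WKY males (SD, n = 7 each), a log2 fold change of 0.70 ± 0.24 (SE, limma adjusted p = 0.0874). For both, all 7 SHR males lay above the WKY median. Flagellum in Campylobacter averaged 369 ± 107 in SHR males and 288 ± 69.6 in WKY males, a log2 fold change of 0.34 ± 0.16 (SE, limma adjusted p = 0.249). Bacterial motility:Gliding averaged 396 ± 67.5 in SHR males and 358 ± 85.8 in WKY males, a log2 fold change of 0.16 with a 95% interval from -0.10 to 0.42.

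For Flagellar motility and Bacterial Chemotaxis, the coefficient of variation was highest in WKY males. Flagellar motility stood at 699, 596 and 656 normalized reads in WKY males 1, 4 and 7, and at 175, 218, 146 and 189 in WKY males 2, 3, 5 and 6. Bacterial Chemotaxis divided the same rats, with 1166, 1122 and 1179 normalized reads in WKY males 1, 4 and 7 and 426, 491, 370 and 547 in the other 4. The 3 high WKY males lay within the range of the SHR males for both subsystems. The coefficient of variation of Flagellar motility was 31.6% in SHR females and 43.1% in WKY females, and 37.5% in SHR males and 66.1% in WKY males. Leaving out WKY male 1 or WKY male 7 brought the members called in males to 3, and leaving out SHR female 9, SHR male 4, SHR male 5 or WKY male 4 brought them to 1. Over all subsystems, the calls in males ran from 10 to 81 in the 33 fits that left out 1 rat, against 26 with all rats.

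Averaged over the sexes, 4 of the 5 members were higher in SHR and gliding was not called. limma called 17.2% of all subsystems in this comparison, 71 higher and 111 lower. The log2 fold changes were 0.85 ± 0.17 for Bacterial Chemotaxis (SE, limma adjusted p = 0.0011), 1.01 ± 0.22 for Flagellar motility (adjusted p = 0.0023), 0.67 ± 0.16 for Flagellum (adjusted p = 0.0036) and 0.38 ± 0.11 for Flagellum in Campylobacter (adjusted p = 0.0138). Gliding stood at 0.11, with a 95% interval from -0.06 to 0.29 (adjusted p = 0.389). Ordered by log2 fold change from the top of all 1057 subsystems, Flagellar motility was at place 5, Bacterial Chemotaxis at 12, Flagellum at 19, Flagellum in Campylobacter at 72 and Gliding at 257.

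**Figure D2:**
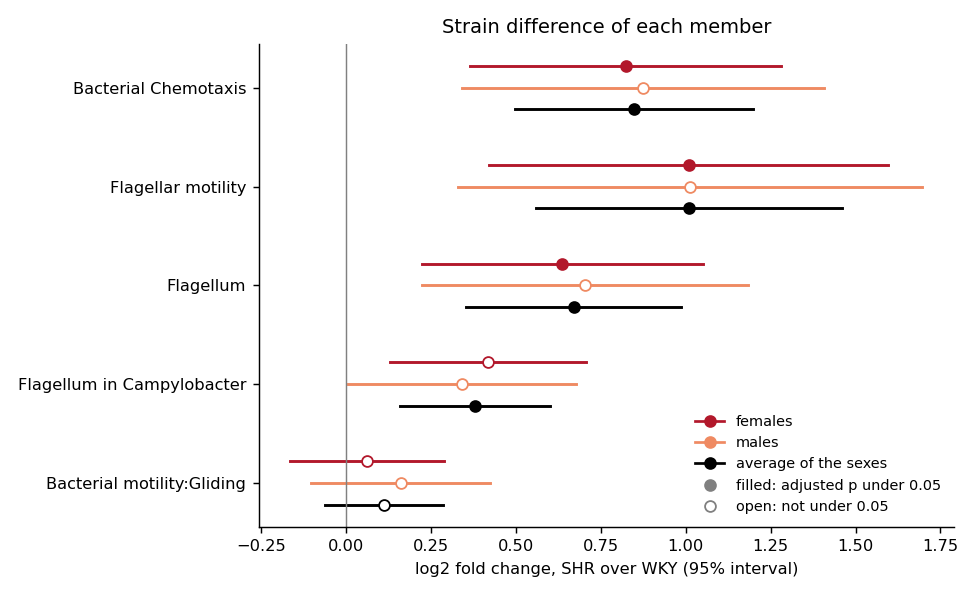
Log2 fold change of each member, SHR over WKY (horizontal axis), in females, in males and averaged over the sexes, with 95% intervals from limma; filled points have an adjusted p under 0.05. Flagellar motility stands near 1.01 in both sexes, and only the intervals of gliding include 0.

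**Figure D3:**
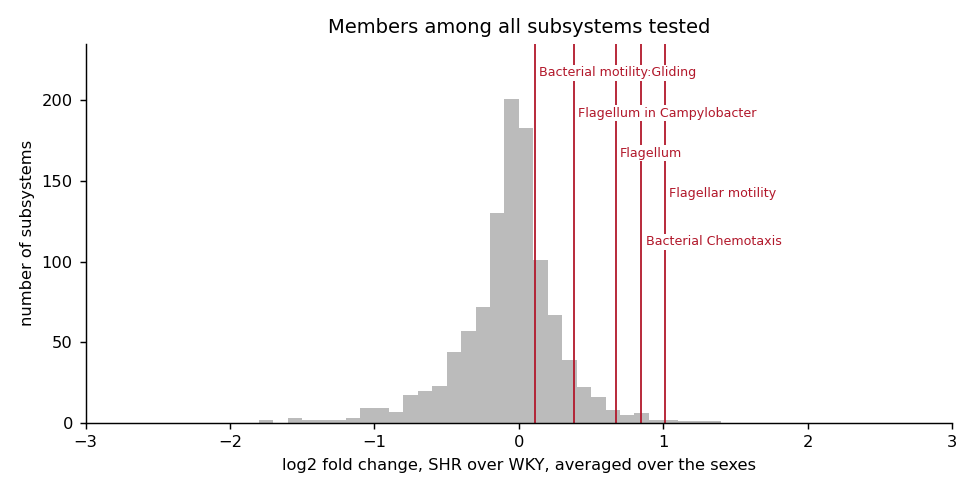
Number of subsystems (vertical axis) by log2 fold change, SHR over WKY, averaged over the sexes (horizontal axis), for all 1057 subsystems in grey, with the 5 members as red lines. The median of all subsystems is -0.02, and the members stand between 0.11 and 1.01.

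The strain effect on Flagellar motility was 1.01 on the log2 scale in females and 1.01 in males, and that on Bacterial Chemotaxis 0.82 in females and 0.87 in males. limma called 0 of 5 members for the difference between the strain effects (strain by sex), with 0 of 5 at an unadjusted p under 0.05 and 0 of 5 by edgeR and by DESeq2, where 0% of all subsystems were called. For Flagellar motility this difference was -0.00 on the log2 scale, with a 95% interval from -0.91 to 0.90, and for Bacterial Chemotaxis -0.05, from -0.75 to 0.65. Differences between the sexes within these intervals were not detectable with these rats.

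Between the sexes of 1 strain, no member was called. In SHR, limma, edgeR and DESeq2 each called 0 of 5 members between females and males, with 0 of 5 at an unadjusted p under 0.05 and 0% of all subsystems called. The female minus male log2 difference in SHR was 0.14 for Bacterial Chemotaxis (95% interval -0.35 to 0.63) and 0.28 for Flagellar motility (-0.35 to 0.91). In WKY, limma, edgeR and DESeq2 again each called 0 of 5, with 0 of 5 at an unadjusted p under 0.05, where limma called 0.662% of all subsystems, all 7 lower in females. The differences in WKY were 0.19 for Bacterial Chemotaxis (95% interval -0.31 to 0.70) and 0.28 for Flagellar motility (-0.36 to 0.93).

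The authors' deposited tables of their own models list the members in part. In the authors' deposited table for females, 4 of the 85 listed subsystems are members, with log2 fold changes of -0.84 for Bacterial Chemotaxis, -0.96 for Flagellar motility, -0.64 for Flagellum and -0.44 for Flagellum in Campylobacter. In the authors' deposited table for males, 0 of 16 listed subsystems are members, and the authors' deposited general table lists 3 of them among 148 subsystems. The sign is opposite to that of SHR over WKY as used here, and the header does not state the direction.

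The 4 flagellar and chemotaxis subsystems varied together from rat to rat, and gliding did so less. With the 4 group means removed, over 33 rats, the log2 levels of Bacterial Chemotaxis and Flagellar motility had a Pearson r of 0.95 and a Spearman rho of 0.92. The 6 pairs among these 4 members had r between 0.75 and 0.95, each with an adjusted permutation p of 3.33e-05 or less over 10 pairs. Within single groups, r between Bacterial Chemotaxis and Flagellar motility was 0.96 in SHR females and 0.86 in WKY females, and 0.99 in SHR males and 0.99 in WKY males. Without the 2 rats farthest from the median it was 0.93. Gliding had r between 0.12 and 0.39 with the other members, none called (lowest adjusted permutation p = 0.075 for r). The subsystems share libraries, and may share genes, since the table does not say which genes a subsystem holds.

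The members did not change by equal amounts. Of 20 log2 ratios between pairs of members, 10 in each sex, 6 differed between the strains by 2-sided exact permutation tests adjusted over the 20, all in females. Flagellar motility over Flagellum averaged -0.05 ± 0.12 in SHR females and -0.43 ± 0.37 in WKY females (SD, n = 10 and 9; difference 0.37, exact adjusted p = 0.0093). Flagellar motility over Flagellum in Campylobacter averaged 1.03 ± 0.24 in SHR females and 0.44 ± 0.52 in WKY females (difference 0.59, exact permutation, adjusted p = 0.0093). Bacterial Chemotaxis over Flagellum in Campylobacter differed by 0.40, and Bacterial Chemotaxis over Gliding by 0.76. The other calls were Gliding over Flagellar motility, at -0.95, and Gliding over Flagellum, at -0.57. In males 0 of 10 ratios passed, with the lowest exact adjusted p at 0.0783 and 4 of 10 at an unadjusted exact p under 0.05. Flagellar motility over Flagellum differed by 0.31 in males (unadjusted exact permutation p = 0.0816).

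Within SHR females, the levels followed the rat number on the label, and the depth of the library moved with both. Bacterial Chemotaxis was 2223, 1848, 1713 and 1586 normalized reads in SHR females 1 to 4, which carry the numbers 400 to 403, and between 819 and 1351 in SHR females 5 to 10, numbered 410 to 415. In SHR females, r between rat number and log2 level was -0.93 for Bacterial Chemotaxis, with rho -0.98 (n = 10, permutation adjusted p = 0.000467 for r and 0.0005 for rho, over 20 relations). It was -0.93 for Flagellar motility, -0.93 for Flagellum, -0.80 for Flagellum in Campylobacter and -0.26 for Gliding, of which Gliding did not pass. Without the 2 SHR females farthest from the median number, r for Bacterial Chemotaxis was -0.87. In SHR males, WKY females and WKY males none of the 15 relations passed, and r for Bacterial Chemotaxis was -0.66, -0.23 and 0.08 in these groups. For Flagellar motility r was -0.57, -0.50 and -0.01 in the same order. Flagellum had r = -0.71 in WKY females (n = 9, permutation adjusted p = 0.128). Groups of 7 to 9 rats cannot show that such a relation is absent.

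In SHR females, rat number also had r = -0.91 with the log2 number of function reads of the library, and r between that number of reads and Bacterial Chemotaxis was 0.93 (n = 10, permutation adjusted p = 0.0032). Rat number and depth can therefore not be told apart in these 10 rats. Among WKY females, depth rose with rat number (r = 0.82, n = 9), and Bacterial Chemotaxis had r = -0.25 with depth. That relation with depth had r = 0.56 for WKY males and 0.43 for SHR males (n = 7 each). No such relation with depth passed outside the SHR females. The fits that follow take in the same 10 rats, so they do not separate rat number from depth. Which of them the levels follow was not tested. With log2 depth in the fit, the average strain difference was 1.14 for Bacterial Chemotaxis and 1.28 for Flagellar motility on the log2 scale, and 4 of 5 members were called in females, 3 of 5 in males and 4 of 5 averaged over the sexes. The same fit called 231, 94 and 280 of all 1057 subsystems in these comparisons, more than the 89, 26 and 182 without depth. Rat number, centred within strain, gave 1 of 5 in females, 3 of 5 in males and 4 of 5 averaged over the sexes, where it called 70, 96 and 219 of all subsystems.

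The strain comparison was also made without part of the SHR rats, divided at the median SHR rat number of 412 after the fall of the levels with rat number had been seen. Bacterial Chemotaxis ran from 1293 to 2223 normalized reads in the 8 SHR rats numbered below 412, from 776 to 1462 in the other 9 SHR rats, and from 370 to 1204 in the WKY rats. Flagellar motility ran from 698 to 1316 in the lower-numbered and from 371 to 801 in the higher-numbered SHR rats, against 146 to 731 in WKY rats. Without the 8 lower-numbered SHR rats, limma called 0 of 5 members in females, in males and averaged over the sexes, with average log2 fold changes of 0.55 for Bacterial Chemotaxis (adjusted p = 0.101) and 0.72 for Flagellar motility (adjusted p = 0.117). Without the 9 higher-numbered SHR rats it called 4 of 5 in females and 4 of 5 averaged over the sexes. In males that fit called 0 of 5, with 2 SHR males left, so it cannot show that a difference is absent. Its log2 fold changes in males were 1.42 for Bacterial Chemotaxis and 1.53 for Flagellar motility. Of all subsystems, limma called 17 in females and 0 in males without the lower-numbered SHR rats, and 129 and 0 without the higher-numbered. Leaving out rats already seen to be high lowers the difference by construction, and leaving out rats already seen to be low raises it. Fewer rats also enter each fit, so neither fit is a separate test of the strain difference. The log2 fold changes of Bacterial Chemotaxis and Flagellar motility stayed positive in every such fit.

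**Figure D4:**
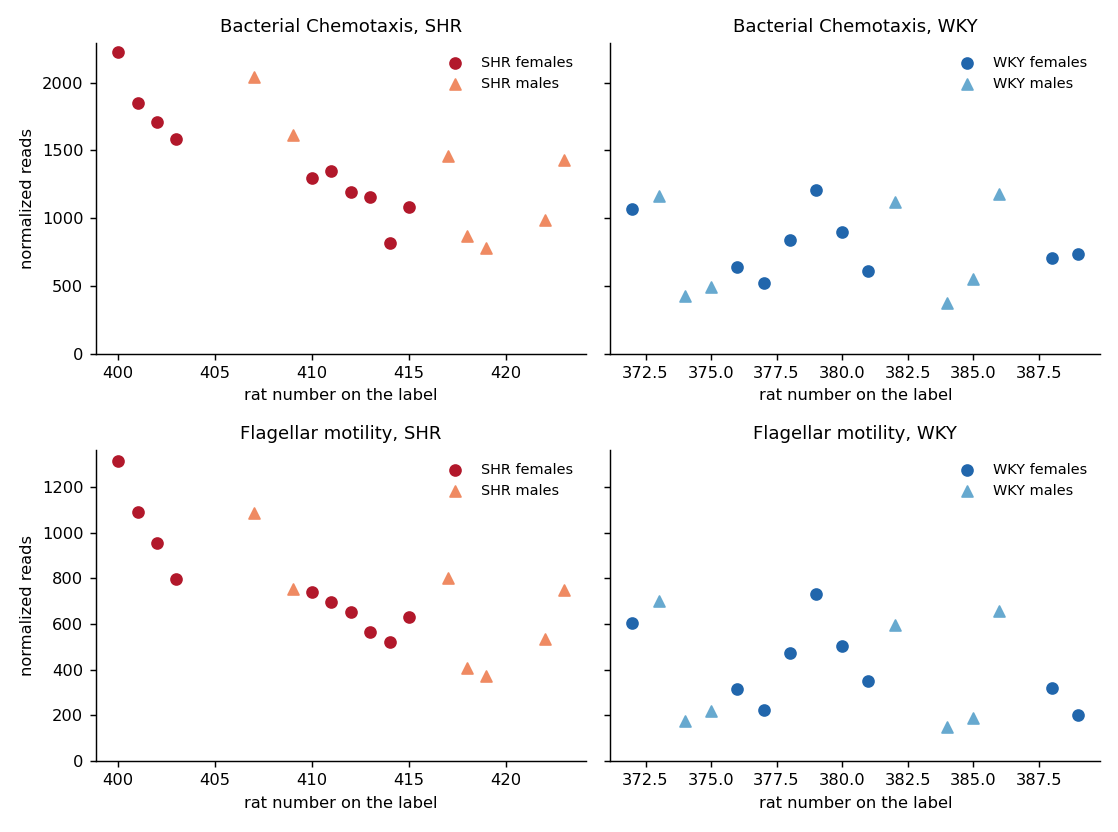
Normalized reads (vertical axes, from 0) of Bacterial Chemotaxis and Flagellar motility against the rat number on the label (horizontal axes), for SHR rats on the left and WKY rats on the right, with circles for females and triangles for males. SHR females fall with rat number (r = -0.93 for each subsystem). In WKY females r was -0.23 for Bacterial Chemotaxis and -0.50 for Flagellar motility, and in WKY males 0.08 and -0.01, none of which passed.

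Genera known to carry flagella were looked up in the table of 1453 bacterial genera, of which 19 of the 21 listed were present. On the size-factor scale used for the subsystems, their median log2 fold change in females was -0.00, against -0.05 for all genera. limma called 1 of the 19 in females, Vibrio, which was lower in SHR by a log2 fold change of -0.52 ± 0.10 (SE, adjusted p = 0.0055), where 0.895% of all genera were called. It called 0 of 19 in males, where 0% of genera were called, and 1 of 19 averaged over the sexes, again Vibrio (log2 fold change -0.39, adjusted p = 0.0022), where 3.23% were called. At an unadjusted p under 0.05 there were 2 of 19 in males, among 168 of all 1453 genera.

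The calls among the genera turned on the scale. As a share of bacterial reads, on the log2 odds scale, the median of all genera was 0.37 higher in SHR averaged over the sexes, and 10 of the 19 flagellated genera were called higher, among 575 genera called higher and 584 called in all. The median of the 19 was 0.37 too, equal to that shift. Vibrio was no longer called on this scale, at -0.14 in females (limma adjusted p = 0.553) and 0.00 averaged over the sexes (adjusted p = 0.98). Roseburia, a flagellated butyrate producer of the colon, made up 1.20 ± 0.446% of bacterial reads in SHR females and 0.697 ± 0.241% in WKY females (SD, n = 10 and 9), and 1.16 ± 0.462% in SHR males and 0.788 ± 0.326% in WKY males (n = 7 each). Its log2 fold change in females was 0.41 ± 0.19 on the size-factor scale (SE, limma adjusted p = 0.278) and 0.80 ± 0.25 on the odds scale (adjusted p = 0.0294). Summed over the 19 genera, the share was 5.43 ± 0.983% in SHR females and 4.10 ± 0.716% in WKY females, and 5.37 ± 0.919% in SHR males and 4.32 ± 1.19% in WKY males. The 18 listed genera that mostly lack flagella summed to 37.4 ± 6.06% in SHR females and 46.7 ± 5.65% in WKY females, and 35.9 ± 5.69% in SHR males and 42.2 ± 6.001% in WKY males. They did not move as 1 group. Lactobacillus stood at 3.41 ± 3.87% in SHR females and 8.66 ± 6.85% in WKY females, and Bacteroides at 9.35 ± 4.02% and 8.98 ± 5.15%. On the odds scale averaged over the sexes, 4 of these 18 were called higher in SHR and 3 lower, with a median of 0.30.

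From rat to rat, Bacterial Chemotaxis rose with the flagellated Lachnospiraceae that were tested. Only genera of the flagellated list entered these tests, so they do not set genera with flagella against genera without. Subsystems and genera come from the same libraries, and the order by rat number and depth within SHR females was not removed. With group means removed, over 33 rats, its r was 0.86 with Butyrivibrio (rho 0.84), 0.83 with Roseburia (rho 0.83) and 0.71 with Lachnospira (rho 0.66), of 11 flagellated genera above 0.1% of bacterial reads, with adjusted permutation p-values of 5.5e-05, 5.5e-05 and 7.33e-05 for r. Butyrivibrio had r between 0.77 and 0.94 within the 4 groups, and Roseburia between 0.77 and 0.93. Selenomonas also passed (r = 0.63, rho 0.54), and Treponema passed by r (0.43, adjusted permutation p = 0.0459) but not by rho (0.34, adjusted p = 0.133). Oscillibacter (r = 0.11), Desulfovibrio (0.34), Pseudomonas (0.32), Vibrio (-0.26) and Bacillus (-0.24) did not pass.

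Campylobacter, the genus named in a member, ran the other way, with r = -0.44 and rho = -0.43 (adjusted permutation p = 0.0254 for r), at 0.206 ± 0.0567% of bacterial reads in SHR females and 0.174 ± 0.0597% in WKY females, and 0.225 ± 0.0499% in SHR males and 0.163 ± 0.0273% in WKY males. On shares of each table's total, its r was -0.13 and did not pass (adjusted permutation p = 0.471). The genus and the subsystem named for it need not share reads, because a subsystem can be matched by genes of other bacteria.

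**Figure D5:**
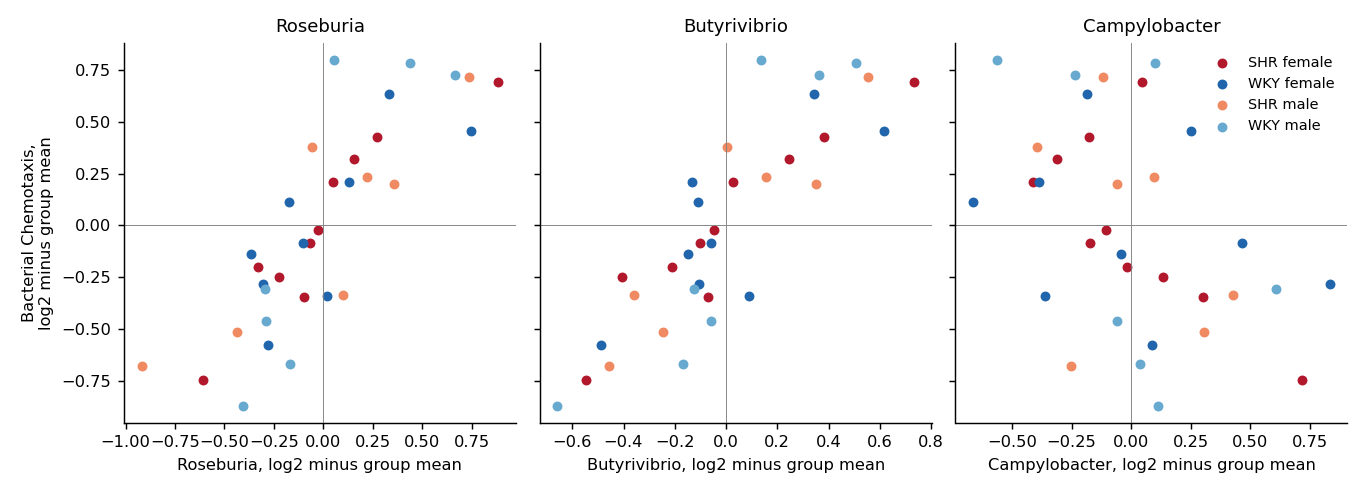
Log2 level of Bacterial Chemotaxis (vertical axis) against that of Roseburia, Butyrivibrio and Campylobacter (horizontal axes), each minus the mean of the rat's group, in 33 rats coloured by group. The first pair rise with chemotaxis (r = 0.83 and 0.86), and Campylobacter does not (r = -0.44).

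The subsystems and genera most like the members were ranked by r with the log2 sum of all 5, after removing group means, over 33 rats. Of 620 other subsystems with a mean of at least 10 normalized reads, the highest were Lysine fermentation MCB 432 (r = 0.87), Bacterial hemoglobins (0.82), Leucine Biosynthesis (0.81), Aromatic amino acid interconversions with aryl acids (0.80) and Indole-pyruvate oxidoreductase complex (0.79). Lysine fermentation MCB 432, by its name the breakdown of the amino acid lysine, was higher in SHR females by a log2 fold change of 0.74 ± 0.18 (SE, limma adjusted p = 0.0112) and by 0.74 ± 0.14 averaged over the sexes (adjusted p = 0.0005). Leucine Biosynthesis was not called in either (0.11 and 0.12, adjusted p = 0.541 and 0.328), so a pattern across rats like that of the members did not always come with a call between the strains. Of 80 genera above 0.1% of bacterial reads, the highest were Butyrivibrio (r = 0.85), Lacrimispora (0.84), Roseburia (0.82), Hungatella (0.81) and Lachnospira (0.71), and the lowest was Mycoplasma (-0.55). These values describe likeness and carry no test.

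Other subsystems of attachment, surface movement and their control numbered 22 by name (pili, fimbriae, adhesins, biofilm, quorum sensing, type III secretion, two-component systems and sigma factors), of which 5 had a mean of at least 10 normalized reads. limma called 1 higher and 1 lower of the 22 in females, 0 in males, and 2 higher and 2 lower averaged over the sexes, shares near the 8.42% and 17.2% of all subsystems called in females and averaged over the sexes. Transcription initiation, bacterial sigma factors, the RNA polymerase subunits that select promoters, averaged 1041 ± 83.3 normalized reads in SHR females and 897 ± 95.8 in WKY females (log2 fold change 0.22, limma adjusted p = 0.016). Two-component regulatory systems in Campylobacter averaged 469 ± 82.3 in SHR females and 445 ± 95.1 in WKY females (0.08, adjusted p = 0.739), and SigmaB stress responce regulation, spelt as in the table, 289 ± 56.6 in SHR females and 252 ± 38.3 in WKY females (0.19, adjusted p = 0.266).

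The other calls were of rare fimbrial and pilus genes, each near or below 2 normalized reads on average. Reads this few are more easily missed in a shallow library. Median depth was 214911 function reads in SHR females and 396240 in WKY females, and 315719 in SHR males and 382975 in WKY males. The fimbrial Sfm cluster had reads in 0 of 10 SHR females and 0 of 7 SHR males, against 8 of 9 WKY females and 3 of 7 WKY males, and was called in females (limma adjusted p = 0.0003) and averaged over the sexes. Colonization factor antigen I fimbriae were lower in SHR averaged over the sexes (log2 fold change -0.78, adjusted p = 0.038). Mannose-sensitive hemagglutinin type 4 pilus was higher in SHR averaged over the sexes (log2 fold change 0.73, adjusted p = 0.0474), with reads in 8 of 10 SHR females and 6 of 7 SHR males, against 3 of 9 WKY females and 4 of 7 WKY males.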

How the data were processed

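Cecal DNA of 33 rats was extracted with a PowerSoil kit and sequenced from Nextera libraries, per the labels' protocols. FastQC 0.11.5, cutadapt 2.6, Trimmomatic 0.36 and DESeq2 (no version) are named with the rat build Rnor_6.0, per the submitters' processing notes. For the classifier and its database, nothing is given in the sources used here, so how a read was assigned to a subsystem or taxon is not known. The authors deposited a signal per subsystem and per taxon, the read count divided by a size factor of the library, per the file headers and values, and a table of genera in percent of bacterial reads. The authors' deposited model tables give log2 fold changes, p-values, adjusted p-values and scores (standard error and statistic) for the functions they list.

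Dividing by the value of 1 read gave whole reads for 100% of deposited values (tolerance 0.01 read). Genera were put on the size-factor scale of the taxa table. limma 3.58.1 (variance trend, robust) was run on log2(normalized value + 1) with 4 group means, 2-sided, adjusted over all 1057 subsystems or 1453 genera; fold changes of features with few reads come out too small on this scale. edgeR 4.0.16 and DESeq2 1.42.0 on the recovered reads, other pseudocounts, a filter, equal totals, depth and rat number in the fit, and leaving rats out were alternatives; those on rat number were added after the data had been seen. On recovered reads edgeR called 102 subsystems in females and 37 in males, and DESeq2 132 and 83. Correlations used 100000 permutations within groups, and 1e-05 is the smallest p they can give. Those with rat number or depth in SHR males and in WKY males used every order of the rats instead, so their smallest p is larger. Reads were not tagged with molecular identifiers, so they need not be independent molecules, and depth limits precision from counting alone. The main limma fit, edgeR and DESeq2 were tested on simulated reads with known changes in SHR females, for the female strain comparison. That simulation held no trend of levels with rat number or depth. The other steps were not tested in this way. The members, the lists of genera and related subsystems, and the rule for named features (all members, related subsystems that passed or were most abundant, the 5 features most alike) were chosen with earlier results of these data known. R 4.3.3 and Python 3.11.15 were used.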

Additional observations from a re-analysis of the deposited data

How the results depend on the processing

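Over all alternatives, none turned the direction of a member called in a strain comparison. In females, where limma called 3 of 5 members, the count was 0 without the lower-numbered SHR rats and 1 with rat number as a covariate. It was 2 without variance trend and robust estimation, where Flagellum was not called (limma adjusted p = 0.0577). The count was 4 with edgeR, DESeq2, the female groups alone and depth as a covariate, and without the 3 shallowest libraries or the higher-numbered SHR rats. When single rats were left out it ran from 1 to 4, with 1 left without SHR female 1, WKY female 3 or WKY female 9. In males, where it called 0, the count was 1 with DESeq2, 1 with the filter on low values, 1 without the 3 shallowest libraries, 3 with depth and 3 with rat number as a covariate, and from 0 to 3 when single rats were left out. Averaged over the sexes, where it called 4, the count was 0 without the lower-numbered SHR rats and 4 in every leave-one-out fit. The 1 flagellated genus called in females and averaged over the sexes, Vibrio, lower in SHR, was not called on the log2 odds scale. There 2 and 10 other genera of the 19 were called, all higher in SHR. Of all 1453 genera, that scale called 183 in females, 179 of them higher, and 584 averaged over the sexes, 575 of them higher. The fits without lower- or without higher-numbered SHR rats hold fewer rats by construction, and leave out rats seen to be high or seen to be low. The cause of the other changes was not tested.

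Over all subsystems, the 89 calls in females became 150 without the 3 shallowest libraries, 231 with depth as a covariate and 17 without the lower-numbered SHR rats. The 26 in males became 50 with the filter, 83 with DESeq2, 2 with the male groups alone, 94 with depth, 96 with rat number, and 0 without the lower- or without the higher-numbered SHR rats. Only 2 SHR males stayed in the fit without the higher-numbered SHR rats. The 182 averaged over the sexes became 280 with depth and 44 without the lower-numbered SHR rats. The 7 between the sexes of WKY became 23 with the filter, 36 with edgeR, 70 with DESeq2, 1 with the WKY groups alone, 12 without the 3 shallowest libraries, 22 with depth, 4 without the lower-numbered SHR rats and 19 with rat number. The 0 for strain by sex became 3 with depth. The 6 relations between Bacterial Chemotaxis and genera became 5 on shares. No paired analysis was possible because the labels give no replicate numbers that the groups share. The lowest depth, 95952 function reads, was in an SHR female.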
